A study of Mus musculus with 5 samples.

Results

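Dermal fibroblasts that held Pi16 or Dpp4 transcripts were described in single-cell RNA sequencing of whole mouse dorsal skin. They were chosen with count thresholds. A barcode had to hold 500 to 8000 genes and at most 10% mitochondrial UMIs (unique molecular identifiers, 1 per captured transcript). It passed a fibroblast gate with at least 100 UMIs of Col1a1, Col3a1 and Dcn, fewer than 20 of Krt14 and Krt5 and fewer than 10 of Acta2 per 10000 UMIs. A gated cell was a member if it held at least 2 UMIs of Pi16 and Dpp4 together and at most 1 UMI of Tnmd and Kera together. Members numbered 912 of 4619 fibroblast-gate cells and of 34041 kept cells. The members were thus selected on the measured UMIs of 10 gate genes, whose values are given as a description and support nothing.

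Pi16 encodes a secreted peptidase inhibitor and Dpp4 (CD26) a membrane dipeptidase that trims chemokines and peptide hormones. In many mouse organs fibroblasts with both are found in adventitia and fascia, with Cd34 and Ly6a (Sca-1), and are described as a source from which other fibroblasts can form. In skin, CD26-positive fibroblasts lie in fascia and dermis and lay down collagen after wounding.

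Both groups were female mice at postnatal day 46, 2 libraries each. Control mice were labelled Lepr-Cre;mTmG, although the protocol and the design text add Smo to that genotype. Mutant mice were labelled Lepr-Cre;mTmG;Smo+/-, and the labels do not say how Smo, the signal transducer of the Hedgehog pathway, was altered. All mice therefore carried Lepr-Cre, a recombinase expressed from the leptin receptor locus, and mTmG, which changes a cell and its progeny from membrane tomato to membrane GFP once the recombinase has acted. Per the protocol the paired libraries of each genotype were technical replicates, so n counts libraries and each p-value measures only the spread between preparations.

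The 4 libraries held 147245343 to 171197845 UMIs in 10748 to 11816 barcodes, of which 8278 to 8818 were kept. Members had a median of 9267 and 9713 UMIs in control and 11558 and 11751 in mutant libraries, against 8777 and 9324, and 10720 and 10079, in the other gated cells. Scrublet called 4, 5, 7 and 7 members as doublets, which were kept. The only barcode that 2 libraries shared among members was 1 of control 2 and mutant 2.

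Members were a smaller share of gated fibroblasts in mutant than in control skin, and nearly the same share of all cells. They made up 24.1% (95% exact binomial interval 21.4 to 27.0%) and 22.0% (19.3 to 24.8%) of gated cells in control, and 17.9% (15.9 to 20.1%) and 17.3% (15.4 to 19.3%) in mutant libraries. The means were 23.0% ± 1.49 and 17.6% ± 0.445 (SD, n = 2 each). The groups did not overlap, but with 2 against 2 libraries a two-sided exact permutation test cannot go below p = 0.333, its value here. Of all kept cells, members were 2.68% and 2.36% in control and 2.84% and 2.82% in mutant libraries (exact permutation p = 0.333). The gate itself held 10.9% ± 0.291 of kept cells in control and 16.1% ± 0.326 in mutant libraries (SD, n = 2, exact permutation p = 0.333). Intervals here and below cover counting error only.

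Most members were chosen through Pi16. Pi16 without Dpp4 was found in 616 cells (67.5%), Dpp4 without Pi16 in 124 (13.6%) and both in 172 (18.9%). A member held 0 to 66 Pi16 UMIs with a median of 4, and 0 to 10 Dpp4 UMIs with a median of 0. Median depth was 9544 UMIs with Pi16 alone, 13208 with Dpp4 alone and 13913 with both, so that a missing transcript is not shown to be absent at this depth. The Pi16-only share was 72.5% and 71.2% in control and 65.0% and 62.7% in mutant libraries (exact permutation p = 0.333).

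The limit on Tnmd and Kera removed more cells than it left. Of gated cells with at least 2 UMIs of Pi16 and Dpp4, 1215 held 2 or more UMIs of Tnmd and Kera, and their mean Pi16 level over the 4 libraries was 729 CPM (summed UMIs scaled to the cells' total, as CPM is defined) against 571 CPM in members. For Dpp4 these means were 15.9 and 63.2 CPM. A further 996 gated cells reached 2 UMIs for Tnmd and Kera only, and 1496 reached 2 UMIs for neither pair. Just inside the lower threshold lay 214 members with exactly 2 UMIs of Pi16 and Dpp4, and just outside it 373 cells with exactly 1. From 0 through 1 and 2 to 3 or more UMIs, mean Cd34 was 337, 548, 634 and 830.0 CPM and mean Pcolce2 132, 321, 408 and 426 CPM. Ly6a, Ly6c1 and Dpt climbed as well. Igfbp6 did not, at 708, 563, 503 and 546 CPM, nor did Mfap5, at 355, 238, 242 and 298 CPM. Sema3c, Cd55 and Anxa3 did not climb steadily but were highest at 3 or more UMIs.

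**Figure D1:**
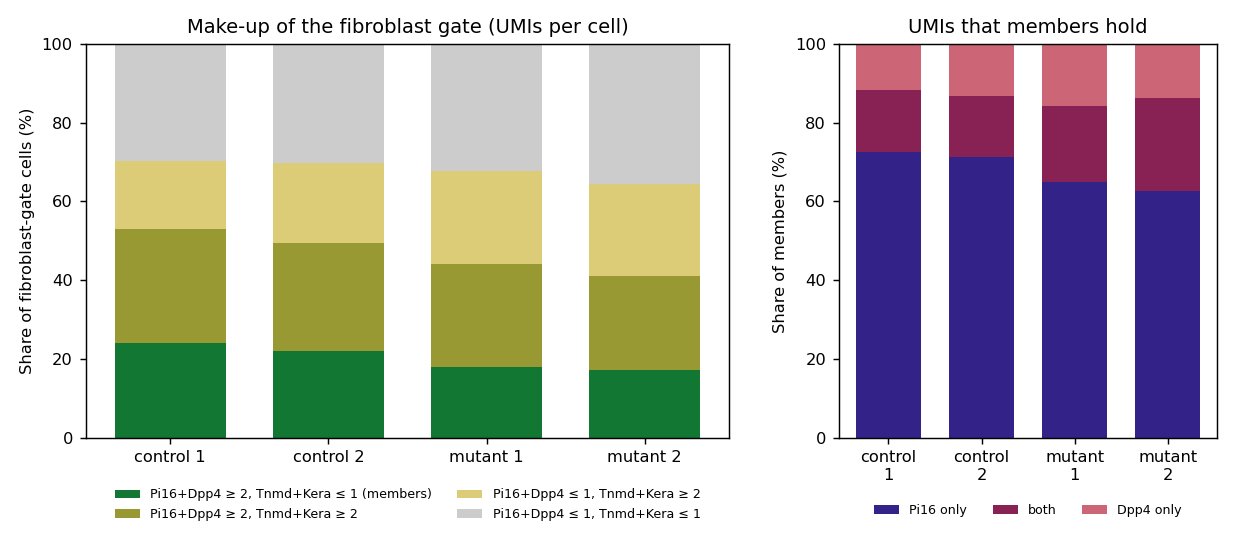
Left, the share of fibroblast-gate cells (%) in each library by UMIs of the 2 gene pairs per cell, with members at the bottom of each bar. Right, the share of members (%) that held Pi16 only, both genes or Dpp4 only. Members fill 24.1 and 22.0% of the control bars and 17.9 and 17.3% of the mutant bars.

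The labelled cell type was checked against markers that the gate did not use. All 10 such markers of Pi16 and Dpp4 fibroblasts were higher in members than in other gated cells in all 4 libraries, with a median log2 ratio of 0.84. For a gate that selects on correlated genes this is a description and carries no test. Against other gated cells with at most 1 UMI of Tnmd and Kera the markers' median was 0.59. Of those cells and members, split above by UMIs of Pi16 and Dpp4, the cells without any had the highest Igfbp6 and Mfap5. Cd34, a surface sialomucin, was at 802 and 888 in control and 721 and 753 in mutant libraries (CPM), a log2 ratio of 0.78 (range over libraries 0.59 to 0.88). Ly6a, the Sca-1 antigen, was at 742 and 842 in control and 840.2 and 864 in mutant libraries, a log2 ratio of 0.90 (range over libraries 0.69 to 1.05). Of the genes common to fibroblasts, Col1a2, a fibrillar collagen chain, gave 0.90 (range over libraries 0.67 to 1.06) and Lum, a collagen-binding proteoglycan, 0.86 (range over libraries 0.67 to 1.07). Markers of other cell types were summed over each list in members. The sums were 387 to 564 CPM for 8 dermal sheath genes (391 to 489 in other gated cells), 196 to 324 for 12 dermal papilla genes (928 to 1069) and 82.6 to 101 for 9 endothelial genes, which in 3 of 4 libraries was above the other gated cells. Blood genes summed to 34.5 to 347 CPM, pericyte genes to 39.0 to 55.8, adipocyte genes to 0.34 to 1.30 and mesothelial genes to 0 to 3.89. Keratinocyte genes summed to 1036 to 2242 CPM (1148 to 1606 in other gated cells). The 8 Tnmd and Kera fibroblast markers summed to 60.6 to 98.3 CPM in members against 2350.1 to 3292 in other gated cells.

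A list of 33 adventitia and fascia genes was followed next. It holds all 10 of the markers just described, which are among the 19 higher genes below, so it is not a separate check. Of its 24 genes at 10 CPM or more in either cell group, 19 were higher and 1 was lower in Pi16/Dpp4 fibroblasts in all 4 libraries, with a median log2 ratio of 0.84. Over all 8022 features at that level, 17.2% were higher and 29.8% were lower in all 4, with a median of -0.065. Against other gated cells with at most 1 UMI of Tnmd and Kera the list's median was 0.54. Fn1, the fibronectin gene, was at 521 and 708 in control and 543 and 615 in mutant libraries, a log2 ratio of 1.07 (range over libraries 0.87 to 1.37). Creb5, a transcription factor, gave 1.28 (range over libraries 1.02 to 1.48) and Cd248, the stromal protein endosialin, 1.09 (range over libraries 0.82 to 1.23). Tmem100, a membrane protein, was the one lower in all 4, at -0.76 (range over libraries -1.23 to -0.31). Akr1c18, Wnt2, Stmn4, Smpd3 and Uchl1 lay below 1 CPM in the mean of members. Of other groups, 16 of 25 measured BMP and TGF-beta genes and 12 of 18 elastic fibre genes were higher in all 4 libraries, with medians of 0.40 and 0.45.

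Igfbp2 stood highest against other gated cells. This binding protein of insulin-like growth factors was at 758 and 434 in control and 648 and 347 in mutant libraries, against 90.2 and 93.9 in control and 212 and 143 in mutant libraries of the other cells, a mean log2 ratio of 2.04 (range over libraries 1.28 to 3.07). All 4 member values exceeded all 4 values of the other cells. Pcolce2, which enhances procollagen processing, was at 342 and 402 in control and 431 and 514 in mutant libraries against 99.3 and 118 in control and 162 and 159 in mutant libraries, a log2 ratio of 1.66 (range over libraries 1.41 to 1.78). Efemp1, an elastic-fibre glycoprotein, was at 313 and 369.8 in control and 482 and 469.9 in mutant libraries, a log2 ratio of 1.41 (range over libraries 1.17 to 1.51). These ratios were against all other gated cells. Some of those held at most 1 UMI of Tnmd and Kera. Of these, the ones without Pi16 and Dpp4 UMIs averaged 170 CPM for Igfbp2, 132 for Pcolce2 and 224 for Efemp1. With 1 UMI of Pi16 and Dpp4 the means were 541, 321 and 342 CPM. Members averaged 989, 408 and 370 CPM with exactly 2 such UMIs and 435, 426 and 420 CPM with more. The part of cells with more Tnmd and Kera in these ratios was not tested. The other leading genes were Ppp1r14a, Serpina3c, Gda, Cdh4, Wisp2, Sulf2, Nov, C1qtnf3, Cldn10, Cadm3, Osr2 and Cyp2f2, with mean log2 ratios from 1.42 to 1.80. Among them Wisp2 and Nov are CCN-family matrix proteins, Sulf2 removes sulfate from heparan sulfate, Cdh4 is a cadherin and Osr2 a transcription factor.

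Most of the lowest genes were high in the cells that the Tnmd and Kera limit removed. Fmod, which encodes fibromodulin, averaged 21.0 CPM in members and 1735 CPM in other gated cells, a log2 ratio of -6.40 (range over libraries -6.97 to -5.76). Against gated cells with at most 1 UMI of Tnmd and Kera the ratio was 0.12. Coch, a secreted matrix protein, was at 377 against 5845 CPM, and its ratio turned from -3.97 to 1.37 with those comparison cells. Sema3e, Crabp1 and Rspo4 likewise turned, from -4.02, -3.83 and -3.26 to 0.99, 0.63 and 0.27. Wif1, a secreted Wnt inhibitor, remained lower with both comparisons, at -4.18 and -2.07, as did Itgb4, the hemidesmosome integrin, at -3.13 and -2.90. Cck, Abca8b and Col11a1 were also lower with both, at -5.29, -3.42 and -2.89 and then -0.40, -0.90 and -0.94.

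**Figure D2:**
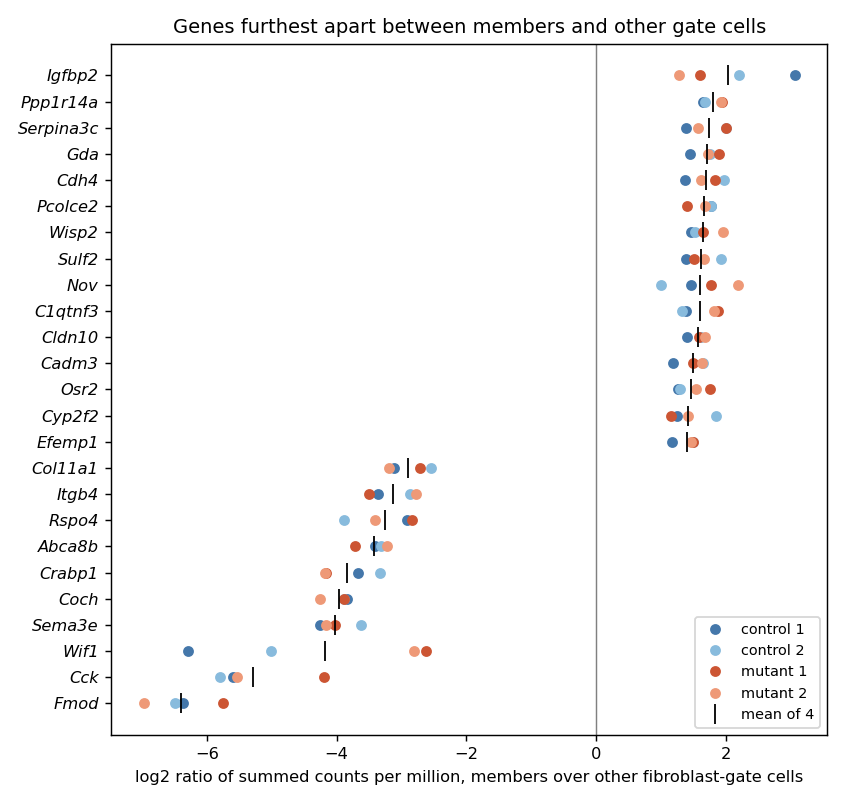
The log2 ratio of summed CPM between members and other fibroblast-gate cells for the 15 highest and 10 lowest genes, 1 point per library and a bar at the mean of 4. Every point of Igfbp2 lies between 1.28 and 3.07, and every point of Fmod between -6.97 and -5.76.

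Members with Dpp4 alone and with Pi16 alone differed in many other genes, described here without a test because the gate genes made the groups. Of 2925 genes at 50 CPM or more, 462 were higher with Dpp4 alone and 633 higher with Pi16 alone in all 4 libraries. F13a1, the clotting factor XIII subunit that crosslinks fibrin, was at 208 and 176 CPM in control and 233 and 174 CPM in mutant libraries with Dpp4 alone, and at 4.77 and 3.05 CPM in control and 0 and 1.18 CPM in mutant libraries with Pi16 alone. Grem1, a BMP antagonist, was at 117 and 259.8 CPM in control and 172 and 148 CPM in mutant libraries with Dpp4 alone and at 0 and 3.81 CPM in control and 4.68 and 6.48 CPM in mutant libraries with Pi16 alone. Neither gene's ranges overlapped between the groups, but both genes were chosen after their values were seen.

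Igfbp2, the leading gene of all members, was higher in the Dpp4-only than in the Pi16-only cells, at 2987 and 1949.7 CPM in control and 2479.8 and 802 CPM in mutant libraries. With Pi16 alone it was at 143 and 106 CPM in control and 128 and 214 CPM in mutant libraries. Stc1 (stanniocalcin), Pamr1, Mamdc2, Sema3a (an axon guidance ligand), Scg3, Tac1 (a neuropeptide precursor), Miat, Ces2g, Pkdcc and Apold1 were higher with Dpp4 alone in all 4 libraries, with mean log2 differences of 2.54 to 4.43. Ereg, an EGF-family ligand, averaged 58.0 against 1.43 CPM but was found in only 10.5% of Dpp4-only cells. Cxcl3 rested on 1.6% of them.

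Pi16-only members led in Coch and in the fibre-associated genes Mfap4 and Ltbp2. Coch was at 702 and 639 CPM in control and 556 and 467 CPM in mutant libraries with Pi16 alone and at 2.78 and 20.9 CPM in control and 28.7 and 25.8 CPM in mutant libraries with Dpp4 alone. Mfap4 was at 2901 and 3216 CPM in control and 3048 and 3366 CPM in mutant libraries and at 283 and 328 CPM in control and 389 and 309.6 CPM in mutant libraries in the same order. Ctgf, a CCN matrix protein, Nrep, Cyp1b1, Ltbp2, Cpxm2, Mgp (matrix Gla protein), Lbp and Lpl (lipoprotein lipase) were also higher with Pi16 alone, with mean log2 differences of -4.32 to -2.48. Hbb-bs, a globin of red blood cells, met the same rule. Cd34 did not separate the groups, with means of 725 CPM for Dpp4 alone and 715 CPM for Pi16 alone.

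**Figure D3:**
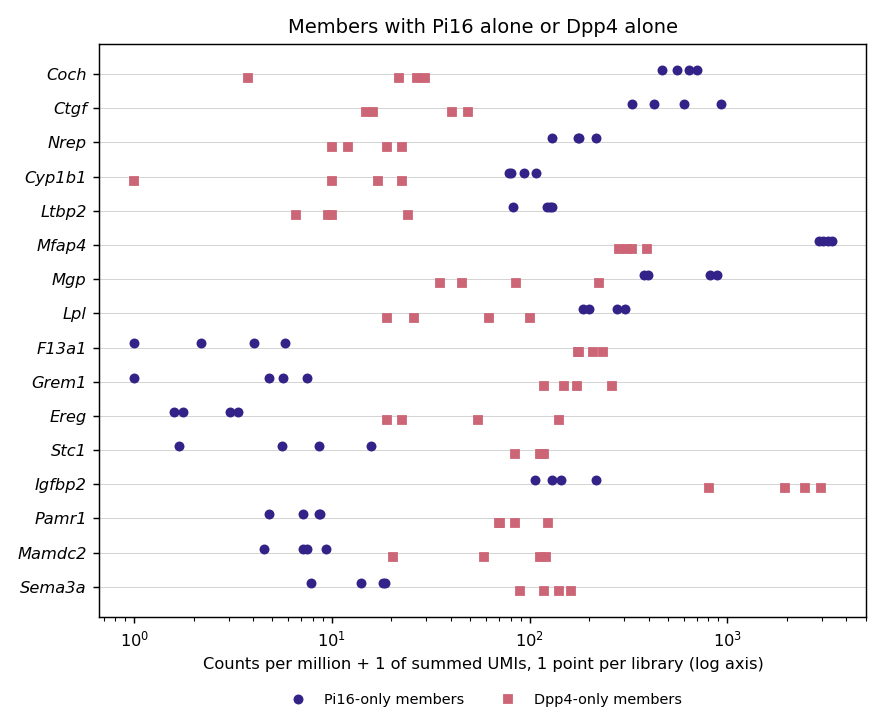
CPM plus 1 of summed UMIs (log axis) for members with Pi16 alone (circles) and Dpp4 alone (squares), 1 point per library and group. The F13a1 squares lie between 174 and 233 CPM and its circles at 4.77 CPM or below.

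The comparison of mutant with control libraries asked which genes of these cells changed with the Smo genotype. Of 10416 genes tested in the members' summed counts with edgeR, 83 (0.797%) were called, which here means that the adjusted p lay under 0.05 and the change reached 1 log2 unit either way. Of these 52 rose (0.499%) and 31 fell (0.298%). The rise included Igfbp4, complement C4b, chemokines and interferon-inducible GTPases, and the fall included Gas6, Mgp, Crabp1 and epidermal genes. One of the 52, Acta2, is a gate gene and is not used. DESeq2 called 33 genes, 20 higher and 13 lower. Among the named genes to which it gave an adjusted p, Sprr1a, Fam25c, Gpx3 and Cxcl10 did not pass. Calls numbered 164 without control 1, 244 without control 2, 87 without mutant 1 and 61 without mutant 2, and 16 (10 higher, 6 lower) in the 614 cells gated after thinning each cell to 2000 UMIs. Of 36 genes named by rule below, 32 were tested after thinning, 17 of them did not pass and 6 turned in direction. The 17 were Fabp4, Wif1, Cygb, eGFP, Ly6d, Tuft1, Cntn1, Crabp1, Gpx3, Mgp, Ptch1, Gpc3, Mmp3, Plat, Clu, Ccl8 and Cxcl10. Below, values are TMM-normalized CPM of the members of each library.

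A cluster held almost wholly by mutant cells carried part of these changes. Leiden clustering of all gated cells gave 20 clusters, of which 1 held 339 mutant and 3 control cells. It contained 35 members, 18 and 17 from the 2 mutant libraries and none from control, or 7.11% of the 492 mutant members. Their median depth was 15071 UMIs against 11486 in the other mutant members, 34 held Pi16 and 12 had exactly the 2 UMIs that the gate asks for. Col1a1 was at 3697 CPM against 25115 in the other mutant members, Pi16 at 234 against 508 and Dpp4 at 16.2 against 71.4. Osr2 was at 1.80 against 219 CPM and Lepr at 656 against 41.8. In the rest of the cluster Col1a1, Osr2 and Lepr were at 6385, 18.9 and 403 CPM. Whether the 35 cells are of the same type as the other members was not tested. Without this cluster 72 genes (0.705% of 10220) passed, 37 higher and 35 lower. Of the 83 genes, 54 passed in both analyses, which is 65.1% of the calls with and 75.0% of the calls without the cluster. Of the others, 23 had risen and 6 had fallen, and 8 of them were not tested without the cluster.

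Igfbp4, a binding protein of insulin-like growth factors, rose and was at 43.9 and 42.0 in control and 524 and 465 in mutant libraries (log2 fold change 3.52, SE 0.11, edgeR adjusted p = 1.97e-07). The groups lay far apart, but 89.3% of the mutant UMIs came from the 35 cells of the cluster. Without them its change was 0.45 and did not pass (edgeR adjusted p = 0.183).

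Preadipocyte and leptin receptor genes depended on the same cells. Of 15 tested genes of a preadipocyte list, 3 rose, none fell, and the median change was 0.24, against 0.0027 over all tested genes. Fabp4, the fatty acid binding protein of adipocytes and endothelium, was at 0.852 and 0.966 in control and 77.7 and 47.2 in mutant libraries (log2 fold change 6.03, SE 0.45, edgeR adjusted p = 0.000129), with 94.3% of mutant UMIs in the cluster. Cxcl12, a chemokine, was at 92.0 and 99.5 in control and 358 and 338 in mutant libraries (log2 fold change 1.86, SE 0.09, edgeR adjusted p = 1.15e-05). Lepr itself was at 42.2 and 25.6 in control and 105 and 96.0 in mutant libraries (log2 fold change 1.55, SE 0.18, edgeR adjusted p = 0.00237). Without the cluster none of the 3 passed: Cxcl12 had 0.75 (edgeR adjusted p = 0.0035), below the fold limit, Lepr had 0.33 (edgeR adjusted p = 0.547), and Fabp4 was too low to be tested. With the gate applied after thinning Lepr had -0.048. Gpc3, a glypican, rose by 1.73 on the log2 scale with it and had 0.19 without it (edgeR adjusted p = 0.786).

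Hedgehog pathway genes were next. Over the 13 tested the median change was 0.26, and none fell. Ptch1, the Hedgehog receptor and a target of the pathway, was at 23.4 and 16.9 in control and 45.1 and 64.0 in mutant libraries (log2 fold change 1.43, SE 0.22, edgeR adjusted p = 0.0104). Hhip, a Hedgehog-binding inhibitor, had 2 UMIs in control and 85 in mutant members, a ratio of 31.0 with a 95% counting interval of 8.31 to 260 (edgeR adjusted p = 0.000855). Hhip also passed without the cluster, with a log2 fold change of 3.58 (edgeR adjusted p = 0.0169). Ptch1 then had 0.84 (edgeR adjusted p = 0.1) and did not pass. Gli1, a transcription factor and target of the pathway, was at 17.9 and 16.9 in control and 20.1 and 22.1 in mutant libraries and did not pass (log2 fold change 0.28, edgeR adjusted p = 0.576). Smo was at 29.8 and 34.8 in control and 44.1 and 33.3 in mutant libraries and did not pass (log2 fold change 0.26, edgeR adjusted p = 0.585), and its groups overlapped.

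The reporters changed in part. eGFP was at 61.8 and 50.7 in control and 255 and 174 in mutant libraries (log2 fold change 1.93, SE 0.18, edgeR adjusted p = 0.000578), and it passed without the cluster at 1.10 (edgeR adjusted p = 0.00858). YFP had no UMI in control and 79 in mutant members, at least 19.2-fold higher against a floor of 3 counts over the group (edgeR adjusted p = 0.00198), with 62.0% of its UMIs in the cluster. Tomato was at 630.1 and 663 in control and 639 and 650.1 in mutant libraries and did not pass (log2 fold change -0.0044, edgeR adjusted p = 0.987). Gt(ROSA)26Sor, the transcript of the Rosa26 locus that carries mTmG, was the largest fall among the genes named by the size rule, at 30.2 and 25.6 in control and 1.73 and 2.64 in mutant libraries (log2 fold change -3.64, SE 0.30, edgeR adjusted p = 0.000244). It is annotated as antisense, so reads of an overlapping partner cannot be told apart where the strand setting is unknown.

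With every cell thinned to 2000 UMIs, an eGFP UMI was found in 10.5% and 10.8% of control and 17.8% and 18.1% of mutant members (exact permutation p = 0.333). Without thinning these shares were 34.7, 35.9, 49.0 and 49.0%. A keratinocyte gate asked for at least 100 UMIs of Krt14 and Krt5 per 10000 UMIs, among other limits. Its cells, with a median depth of 15394 to 17622 UMIs, had 8.86, 9.29, 12.4 and 9.55% after thinning. The control share in members was thus close to the background and is not read as expression. A Lepr UMI was found in 8.22% and 4.10% of control and 10.8% and 10.5% of mutant members (exact permutation p = 0.333), against 0.31 to 0.61% of keratinocytes. Unthinned, the Lepr shares were 26.6, 19.7, 32.9 and 33.7%. Without the cluster the thinned Lepr difference turned from 4.48 to -0.20 percentage points, and the eGFP difference was 4.33 in place of 7.36. Thinning left out 3, 3, 2 and 1 members.

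The complement genes C4b and Clu and the protease gene Mmp3 passed with and without the cluster. Clu and Mmp3 did not pass under every gate. C4b, a component of the classical complement pathway, was at 24.7 and 29.5 in control and 141 and 163 in mutant libraries (log2 fold change 2.49, SE 0.14, edgeR adjusted p = 1.63e-05), and it gave 2.62 without the cluster, which held 1.44% of the mutant UMIs. Clu (clusterin) was at 12.8 and 11.6 in control and 30.5 and 28.4 in mutant libraries (log2 fold change 1.27, SE 0.20, edgeR adjusted p = 0.0102). Clu did not pass with gates of at least 2 Dpp4 UMIs or at least 2 Pi16 UMIs, whatever the other gene (edgeR adjusted p = 0.159 and 0.222). Nor did it with at least 4 UMIs or after thinning (edgeR adjusted p = 0.0707 and 0.320). These were the 2 of 12 tested complement genes that passed, and the list's median was 0.45. Of 20 proteases and inhibitors, 2 rose. Mmp3, the matrix metalloproteinase stromelysin-1, was at 264 and 241 in control and 539.5 and 785 in mutant libraries (log2 fold change 1.39, SE 0.15, edgeR adjusted p = 0.00141), and gave 1.49 without the cluster. It did not pass with the gate of at least 2 Dpp4 UMIs, at 0.93 under the fold limit, or after thinning (edgeR adjusted p = 0.118). Plat, the tissue plasminogen activator, rose by 1.08 with it and had 0.41 without it (edgeR adjusted p = 0.218), and it did not pass without control 1 or without mutant 1.

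Prss22, a tryptase-like serine protease, showed the largest rise among the genes named by the size rule. It had 2 UMIs in control and 197 in mutant members, a ratio of 71.7 with a counting interval of 19.6 to 597 (edgeR adjusted p = 3.72e-05). Its levels were 0.426 and 0.483 in control and 35.4 and 31.3 in mutant libraries. Wif1 was at 2.56 and 5.32 in control and 57.9 and 54.4 in mutant libraries (log2 fold change 3.85, SE 0.26, edgeR adjusted p = 5.62e-05), with 3.29 without the cluster. Plac8, a small cysteine-rich protein, was at 1.28 and 2.90 in control and 28.5 and 22.8 in mutant libraries (log2 fold change 3.62, SE 0.35, edgeR adjusted p = 0.000721) and was the single called gene among 27 tested adventitial genes, whose median was 0.056. Its UMIs came from few cells: 3.50% of mutant members outside the cluster and 0.952% of control members held any, and those with exactly 2 UMIs of Pi16 and Dpp4 held none. None of these groups overlapped, which held for all 83 called genes and so adds nothing to the calls. The share without overlap among all tested genes is not given.

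Angptl4, an inhibitor of lipoprotein lipase, rose as well, at 88.6 and 129 in control and 300.5 and 236 in mutant libraries (log2 fold change 1.30, SE 0.17, edgeR adjusted p = 0.00386). Gpx3, a secreted glutathione peroxidase, was at 184 and 197 in control and 319 and 547 in mutant libraries (log2 fold change 1.19, SE 0.20, edgeR adjusted p = 0.0157), and it did not pass without mutant 2. Cygb, a globin of fibroblasts, was at 12.8 and 20.8 in control and 66.3 and 88.4 in mutant libraries (log2 fold change 2.22, SE 0.22, edgeR adjusted p = 0.000855), and gave 1.11 without the cluster. Adam12, a metalloprotease-disintegrin, was at 4.26 and 5.80 in control and 22.6 and 26.1 in mutant libraries (log2 fold change 2.28, SE 0.27, edgeR adjusted p = 0.00237) and had 0.90 without it (edgeR adjusted p = 0.268).

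Chemokines and interferon-inducible GTPases formed a further group. Of 20 tested chemokines and cytokines, Ccl8, Cxcl10 and Cxcl12 rose, none fell, and the median was 0.45. Ccl8, a monocyte chemoattractant, was at 55.0 and 49.8 in control and 179 and 184 in mutant libraries (log2 fold change 1.79, SE 0.11, edgeR adjusted p = 2.29e-05). Cxcl10, induced by interferon gamma, was at 351 and 315 in control and 709 and 626 in mutant libraries (log2 fold change 1.00, SE 0.09, edgeR adjusted p = 0.000335), at the fold limit, and it did not pass without control 2 or without mutant 1. Both also passed without the cluster, at 1.93 and 1.06. Neither passed with the gate applied after thinning. Cxcl10 also did not pass with DESeq2, with RLE factors, without doublets, with at least 1 UMI or without the Tnmd and Kera limit.

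Gbp3, Gbp5, Irgm1, Irgm2 and Gm4841, GTPases that interferon gamma induces, were among the called rises. They were picked from the calls after their values were seen, so their shared direction is set by the choice. Gbp2, a further such GTPase, was at 102 and 101 in control and 123 and 175 in mutant libraries and did not pass (log2 fold change 0.55, edgeR adjusted p = 0.116). Gbp5 was at 11.1 and 8.70 in control and 35.7 and 28.7 in mutant libraries (log2 fold change 1.69, SE 0.23, edgeR adjusted p = 0.00475). Irgm1 was at 43.9 and 56.0 in control and 116 and 87.7 in mutant libraries (log2 fold change 1.03, SE 0.17, edgeR adjusted p = 0.0123). Gm4841 was at 0 and 2.90 in control and 39.2 and 28.7 in mutant libraries (log2 fold change 4.59, SE 0.52, edgeR adjusted p = 0.00199). Gbp3 was at 11.9 and 12.6 in control and 22.6 and 27.4 in mutant libraries (log2 fold change 1.03, SE 0.21, edgeR adjusted p = 0.0429). Irgm2 was at 8.09 and 8.21 in control and 20.1 and 26.1 in mutant libraries (edgeR adjusted p = 0.0137). The groups of each gene lay apart, as they did for all 83 called genes, so this adds nothing to the calls. The cluster held 3.38% of the mutant UMIs of Gbp3 and none of those of Gbp5 and Gm4841. Ccl5, a T cell chemokine, rose by 1.74 (edgeR adjusted p = 0.0231). None of 13 tested genes of a separate list of interferon-induced genes, which holds Gbp2, passed, with a median of 0.037. With 0.797% of all tested genes called, a list of this size without a call is near that share. Summed T cell markers were 48.4 and 72.0 CPM in control and 67.3 and 109 CPM in mutant members, and their part in these rises was not tested.

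The promoters of this group were read for the letters of known response elements, a search chosen after the rises were seen. The windows run from 250 bases before to 50 bases after the start of the RefSeq gene on GRCm38.p6, and were matched for 34 of the 52 rises and 19 of the 31 falls. The interferon-stimulated response element was searched as GAAA, any 2 bases and GAAA again, and the gamma-activated site as TTCNNNGAA on both strands. The first was found in 5 of 34 higher genes (14.7%), which were Gbp3, Gbp5, Irgm1, Irgm2 and Cxcl10, in 2 of 19 lower genes and in 3.99% of all 27025 genes. The second was in 3 of 34 higher genes (8.82%), none of the 19 lower and 9.55% of all. The Gli site GACCACCCA was in none of the 34 or 19 and in 0.289% of all genes. A match describes letters only. Gbp3 (chr3:142559794-142560093, plus strand) and Irgm1 (chr11:48871371-48871670, minus strand) are shown because each holds 2 overlapping matches of the first motif, and Gbp5 (chr3:142496684-142496983, plus strand) because it holds both motifs. Capitals mark the matches.
Gbp3: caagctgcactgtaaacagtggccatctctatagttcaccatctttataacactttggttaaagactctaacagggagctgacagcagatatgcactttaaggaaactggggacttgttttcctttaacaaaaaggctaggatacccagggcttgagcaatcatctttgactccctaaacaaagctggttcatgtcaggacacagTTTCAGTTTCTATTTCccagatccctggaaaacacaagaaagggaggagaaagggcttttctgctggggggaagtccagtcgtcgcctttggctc
Irgm1: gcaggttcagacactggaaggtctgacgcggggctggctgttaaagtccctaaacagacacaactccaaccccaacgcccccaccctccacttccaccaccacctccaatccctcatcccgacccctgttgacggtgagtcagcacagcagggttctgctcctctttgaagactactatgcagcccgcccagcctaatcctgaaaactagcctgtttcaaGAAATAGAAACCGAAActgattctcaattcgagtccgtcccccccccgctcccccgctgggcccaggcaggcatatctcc
Gbp5: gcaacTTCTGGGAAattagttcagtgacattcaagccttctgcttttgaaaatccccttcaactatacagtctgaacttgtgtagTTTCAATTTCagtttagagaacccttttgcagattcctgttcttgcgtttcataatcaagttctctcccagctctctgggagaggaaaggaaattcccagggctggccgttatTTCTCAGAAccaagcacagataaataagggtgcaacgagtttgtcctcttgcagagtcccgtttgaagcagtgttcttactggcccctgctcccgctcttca

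**Figure D4:**
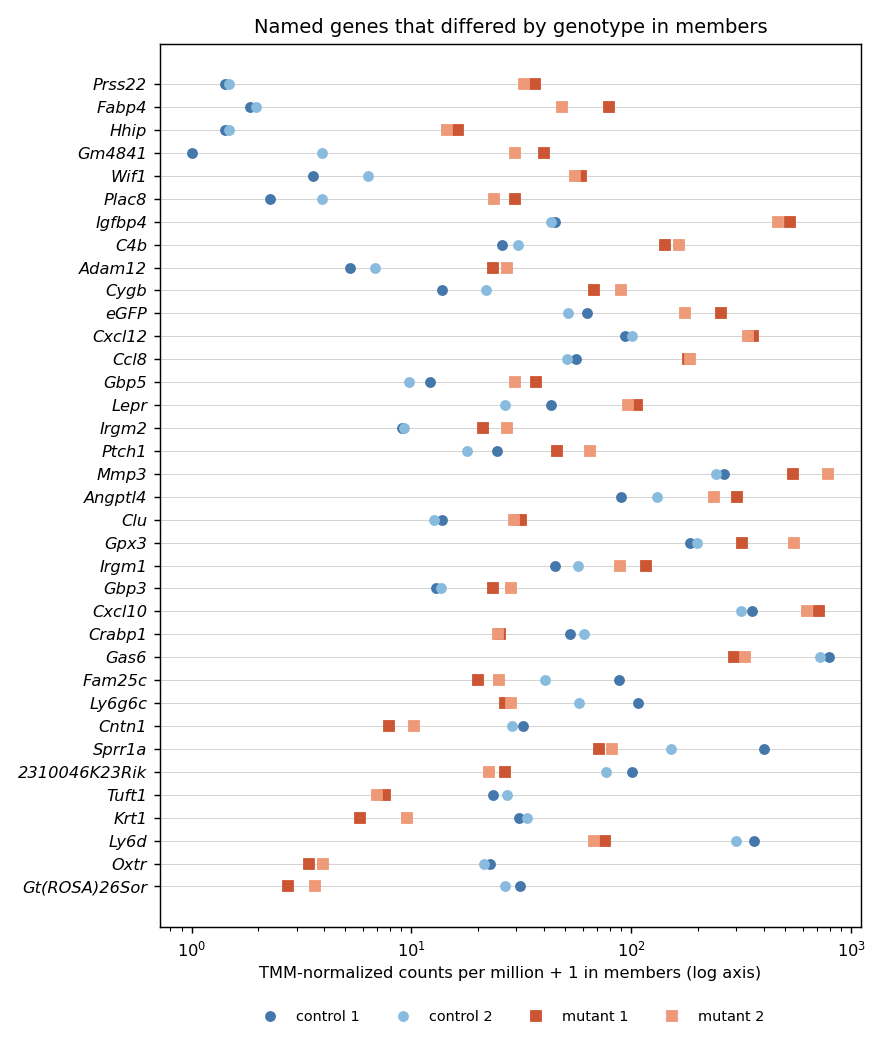
TMM-normalized CPM plus 1 (log axis) in the members of each library for named genes, ordered by fold change, with circles for control and squares for mutant libraries. For each gene shown the control and mutant points do not overlap, as in Igfbp4, at 43.9 and 42.0 against 524 and 465 CPM. All 83 called genes were without overlap, so this follows from the choice of genes. The share among all tested genes is not given.

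Gas6, Mgp and Crabp1 fell. Gas6, a ligand of the TAM receptor tyrosine kinases, was at 791 and 716 in control and 291 and 328 in mutant libraries (log2 fold change -1.28, SE 0.08, edgeR adjusted p = 4.44e-05), and gave -1.14 without the cluster. It was the single fall among 29 tested growth factors and receptors, of which Igfbp4 and Angptl4 rose, with a median of 0.097. Mgp, an inhibitor of calcification, was at 519 and 601 in control and 255 and 263 in mutant libraries (log2 fold change -1.11, SE 0.09, edgeR adjusted p = 0.000168). Without the cluster Mgp had -0.97 (edgeR adjusted p = 0.000253), just under the fold limit. Crabp1, a retinoic acid binding protein of papillary fibroblasts and dermal papilla, was at 51.5 and 59.9 in control and 24.3 and 23.7 in mutant libraries (log2 fold change -1.21, SE 0.16, edgeR adjusted p = 0.00414). Of 13 tested papillary genes Wif1 rose and Crabp1 fell (median 0.021), and of 13 reticular genes Gpx3 rose and Mgp fell (median -0.047). Mgp and Ctgf, which also fell, were among the genes that Pi16-only members held at higher levels, and the Pi16-only share was lower in mutant libraries. Its part in these falls was not tested.

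Oxtr, the oxytocin receptor, fell from 21.7 and 20.3 CPM in control to 2.43 and 2.97 in mutant libraries (log2 fold change -2.94, SE 0.30, edgeR adjusted p = 0.000855). Cntn1, a neural adhesion molecule, was at 31.1 and 27.5 in control and 6.94 and 9.24 in mutant libraries (log2 fold change -1.85, SE 0.23, edgeR adjusted p = 0.00288). Tuft1 fell by 1.95 on the log2 scale (edgeR adjusted p = 0.00296). Hist1h2al, a histone gene, had 47 UMIs in control and none in mutant members, at least 21.5-fold lower against a floor of 3 counts (edgeR adjusted p = 0.00237). Histone genes of this family are near-identical, so its reads can be shared with other copies.

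Genes known from epidermis were among the other named falls. Ly6d, a surface protein of keratinocytes, was at 359 and 298 in control and 74.6 and 66.3 in mutant libraries (log2 fold change -2.22, SE 0.12, edgeR adjusted p = 1.41e-05). Krt1, a keratin of the suprabasal epidermis, was at 29.8 and 32.4 in control and 4.86 and 8.58 in mutant libraries (log2 fold change -2.19, SE 0.26, edgeR adjusted p = 0.00237). Without the doublets that scrublet called it had -2.23 and did not pass (edgeR adjusted p = 0.130). Nor did it with the gate of at least 2 Pi16 UMIs or with at least 4 UMIs (edgeR adjusted p = 0.173 and 0.275). Sprr1a, a cornified envelope precursor, was at 402 and 150.3 in control and 70.1 and 80.8 in mutant libraries (log2 fold change -1.88, SE 0.35, edgeR adjusted p = 0.0252), and it did not pass without control 1, mutant 1 or mutant 2. Fam25c likewise did not pass in these 3 analyses. With all libraries it fell by 1.56 (edgeR adjusted p = 0.0371), and without doublets it had -1.08 (edgeR adjusted p = 0.165). Ly6g6c and 2310046K23Rik fell by 1.63 and 1.90 (edgeR adjusted p = 0.0104 and 0.000385). With the gate applied after thinning, Krt1, Sprr1a, Fam25c, Ly6g6c and 2310046K23Rik turned in direction, to 2.29, 1.76, 1.63, 2.07 and 1.78.

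Keratinocyte RNA in members moved with these falls. Of 10 tested keratinocyte markers 2 fell, Krt1 and Lgals7, with a median of -0.94. The summed level of 12 keratinocyte markers in members was 2242 and 1661 CPM in control and 1083 and 1036 CPM in mutant libraries. In other gated cells it was 1172 and 1606 CPM in control and 1337 and 1148 CPM in mutant libraries, where the groups overlapped. Over all kept cells the same sum was 25775 and 25597 against 20370.1 and 20418 CPM, and the keratinocyte gate held 17.9% and 18.0% of kept cells in control and 10.5% and 11.2% in mutant libraries. Of the 31 fallen genes, 6 were at least 10 times higher in keratinocyte-gate cells than in control members and 16 were lower there than in members. That gate selects on Krt14 and Krt5. The epidermal genes Sprr1a, Ly6g6c and 2310046K23Rik were among the 16, at 0.54, 0.45 and 0.29 times the level of control members. The counts therefore do not sort the falls by the cells that made the RNA. The part of keratinocyte RNA in the falls was not tested.

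No called gene was found among 19 tested collagens, 32 fibroblast transcription factors, 27 BMP and TGF-beta genes or 18 elastic fibre genes, with medians of -0.17, -0.050, 0.11 and 0.12. Only 0.797% of all tested genes were called, so lists of these sizes without a call are near that share. Over all 10416 genes, 1502 had an unadjusted edgeR p under 0.05. On simulated counts with these library sizes the test recovered 91.6% of changes of 1.5 and 99.0% of changes of 2 on the log2 scale, with 8 false calls. The simulation used a single fixed spread between libraries, not that of these data, and changed only genes with higher counts. Smaller changes were not simulated, so it cannot say how many changes in the lists above were missed.

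**Figure D5:**
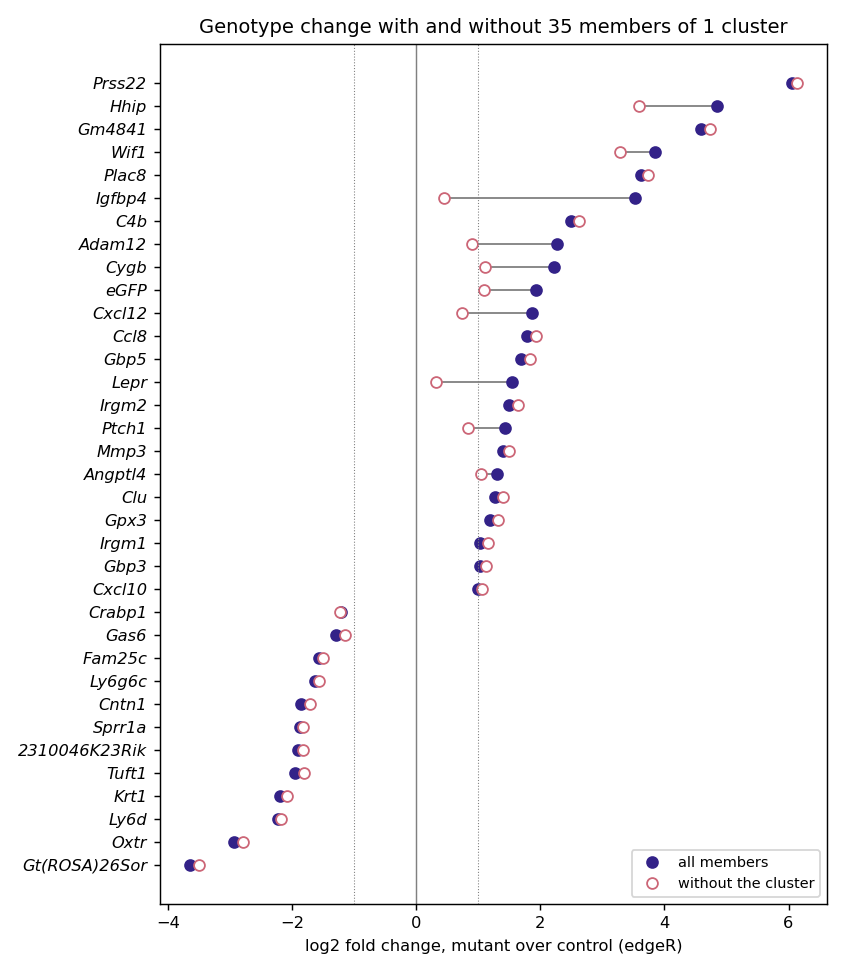
The edgeR log2 fold change of named genes in all members (filled) and without the 35 members of the cluster held by mutant cells (open), with dotted lines at the fold limit of 1. Igfbp4 moves from 3.52 to 0.45 and Lepr from 1.55 to 0.33, while C4b has 2.49 and 2.62.

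The other fibroblast-gate cells of the same libraries gave 179 calls of 13175 genes (1.36%), 136 higher (1.03%) and 43 lower (0.326%). Of these, 38 were also called in members, which is 45.8% of the members' calls and 21.2% of the other cells' calls, all with the same sign. Both cell groups come from the same 4 libraries. A test of the difference between the 2 genotype effects, with the library as a block, passed for 21 of 12214 genes (0.172%). The change was higher in members for 9 (0.0737%) and lower for 12 (0.0982%). Only 1 gene passed without the cluster held by mutant cells, 2 passed when the other cells were limited to those with at most 1 UMI of Tnmd and Kera, and DESeq2 called 6. Leaving out control 1, control 2, mutant 1 or mutant 2 gave 39, 118, 36 and 36 calls.

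Wif1 is an example. It rose by 3.85 on the log2 scale in members, and in other gated cells it was at 216 and 179 in control and 355 and 379.6 in mutant libraries, where the change was 0.90. The difference was 2.97 (SE 0.25, edgeR adjusted p = 6.54e-05). For Gbp5 the other cells were at 16.2 and 19.3 in control and 16.1 and 19.8 in mutant libraries, and the difference was 1.68 (SE 0.29, edgeR adjusted p = 0.0173). Mgp fell in members and was at 417 and 426 in control and 418 and 375 in mutant libraries in the other cells, a difference of -1.02 (SE 0.09, edgeR adjusted p = 7.97e-05). The other cells were not alike in this. With at most 1 UMI of Tnmd and Kera and no Pi16 or Dpp4 UMI, Mgp was also lower in mutant libraries. It was at 1115 and 984 in control and 767 and 535 in mutant libraries (CPM of summed UMIs). With 1 UMI of Pi16 and Dpp4 it was at 486 and 386, and 657 and 383, which overlapped. With the cluster left out the Wif1 and Gbp5 differences were 2.54 and 1.53 (edgeR adjusted p = 0.0594 and 0.197).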

How the data were processed

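Whole dorsal skin was captured as single cells with version 3 of the 10x Genomics 3' chemistry, per the labels' protocols. The authors deposited unnormalized UMI counts, 1 matrix a library. The submitters' processing notes name the builds GRCm38 and mm10 and the tools Scanpy 1.6.0, Seurat 3.2.2 and Cell Ranger 2.1.1 and 3.1.0. How the authors called cells or handled strand is not given in the sources used here. The sorted GFP-positive library (another age and chemistry) was not analysed here.

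UMI counts were summed per library over members and over other gated cells and tested with edgeR 4.0.16 (TMM, filterByExpr, quasi-likelihood, Benjamini-Hochberg). The interaction fit had the library as a block. Shares were compared with two-sided exact permutation tests. Doublets were called with scrublet (expected rate 0.08) in scanpy 1.11.5, and gated cells were clustered with leidenalg 0.10.2 (2000 variable genes, 30 components, 15 neighbours, resolution 1.0). Log2 ratios between cell groups add 0.5 to each count. The tests were checked on simulated data. Members and gene lists were chosen with earlier results of these data known. Named genes were the 10 rises and 10 falls of largest size at 20 CPM or more without overlap, up to 4 called genes per list, 5 interaction genes each way, and the 15 highest and 10 lowest levels at 50 CPM or more. Ccl5, Irgm1, Irgm2 and Hist1h2al, the sub-group genes and the promoters were chosen after values were seen. Results of some genes are not reported here. Alternatives were DESeq2 1.42.0, RLE factors, no filter, left-out libraries, a replicate block and other gates. The gates called Dpp4 alone and Pi16 alone below asked for at least 2 UMIs of that gene, whatever the other. They held 198 and 744 cells.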

Additional observations from a re-analysis of the deposited data

Results flagged for a closer look

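For 10 named genes the mutant-minus-control change differed between members and other gated cells by the test of the difference itself, in log2 units. It was higher in members for 5. Wif1 differed by 2.97, with changes of 3.85 in members and 0.90 in other cells (edgeR adjusted p = 6.54e-05). Igfbp4 differed by 2.02, with 3.52 and 1.51 (edgeR adjusted p = 1.97e-08). Gbp5, Adam12 and Gbp3 differed by 1.68, 1.46 and 1.26 (edgeR adjusted p = 0.0173, 0.0411 and 0.0355).

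The change was lower in members for the other 5. Cd74, the invariant chain of MHC class II, differed by -2.14 (edgeR adjusted p = 0.0383), and its control values in members were 26.0 and 112 CPM, farther apart than those in mutant libraries. Summed macrophage and dendritic cell markers in members were 63.8 and 219.9 CPM in control and 76.8 and 96.2 CPM in mutant libraries, and their part was not tested. Slco2a1, a prostaglandin transporter, rose in both cell groups, by 1.31 in members and 2.71 in other cells, a difference of -1.41 (edgeR adjusted p = 0.00243). Of its UMIs in mutant members 54.1% lay in the 35 cells of the cluster, the other mutant members were at 40.0 CPM against 32.8 CPM in control, and without the cluster the members' change was 0.33 (edgeR adjusted p = 0.448). Ppif, Epha2 and Igfbp2 differed by -1.36, -1.26 and -1.19 (edgeR adjusted p = 0.00318, 0.00663 and 0.00862). None of the 10 passed when the cluster held by mutant cells was left out, or when the other cells were limited to at most 1 UMI of Tnmd and Kera.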

How the results depend on the processing

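The count of called genes in members (83) was 33 with DESeq2, 131 with a replicate block, 139 with a gate of at least 1 UMI, 188 without the low-count filter, 16 with the gate applied after thinning, and 61 to 244 with a library left out. In other gated cells (179) it was 112 with DESeq2, 104 without the cluster held by mutant cells and 111 without the filter, and the difference between the cell groups (21) gave 6 with DESeq2, 38 without the Tnmd and Kera limit, 40 with Dpp4 alone, 47 and 13 with at least 1 and 4 UMIs, 2 with low-Tnmd/Kera comparison cells, 1 without the cluster, 37 without doublets, 118 without the filter, 8 with Pi16 alone, 43 after thinning and 36 to 118 with a library left out. Genes were also counted if the mean ratio of members to other cells was at least 2-fold, with the same direction in every library. Those higher in members (60) numbered 30 against low-Tnmd/Kera cells, 24 after thinning, 22 with Pi16 alone, 111 with Dpp4 alone and 21 without the Tnmd and Kera limit. Those lower (59) numbered 38 after thinning, 107 with Dpp4 alone and 18 without that limit.

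Higher calls were 24 of 101 with the Dpp4 gate and 61 of 78 with the Pi16 gate, against 52 of 83. Both gates keep cells that also hold the other gene. They are not the Dpp4-only and Pi16-only members, whose genotype change was not tested. The share of gated cells turned to 0.099 percentage points with Dpp4 alone, and that of kept cells to -0.0003 with at least 4 UMIs and to -0.0289 after thinning, where the Lepr share turned to -2.34 (without the cluster, -0.20). After thinning, which left 614 members, log2 changes turned for Krt1 (2.29), 2310046K23Rik (1.78), Sprr1a (1.76), Ly6g6c (2.07), Fam25c (1.63) and Lepr (-0.048), and differences for Ppif (0.56) and Epha2 (0.061). Without the Tnmd and Kera limit, chosen after seeing the data, they turned for Krt1 (0.30), Crabp1 (0.096) and the Igfbp4 difference (-0.45), with Dpp4 alone for the Adam12 (-0.24) and Cd74 (0.45) differences, and with Pi16 alone for the Igfbp2 difference (0.29). The cause was not tested.

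Replicate numbers did not pair libraries: deviations of same-numbered libraries correlated at 0.0224 in members and -0.0727 in other cells, and the replicate block gave 131 and 196 calls. The interaction fit has the library as its block, so no further block could be added. All 36 named genes kept their call with the block and without the filter, 35 with RLE factors, 26 of 34 tested without the cluster, 20 of the 24 for which DESeq2 gave an adjusted p, 33 without doublets, 32 and 31 with at least 1 and 4 UMIs, 29 with Pi16 alone, 21 of 31 with Dpp4 alone, 22 without the Tnmd and Kera limit and 9 of 32 after thinning.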
